A study of Rattus norvegicus with 16 samples.

Results

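The genes described here are 46 genes of homologous recombination, the Fanconi anaemia pathway and the repair of broken DNA, measured in the ovaries of 16 female Jcl:SD rats. They were taken by name from a fixed list, by the gene name or an older symbol on the array, and the rule for membership uses no measured value. The list itself was chosen with earlier results of these data known, so counts by sign below are a description and not a test. Of the 46 genes, 44 were found on the array, and Dna2 and Fanci were not found under the names searched. The only probe for Fancm was well above background on 0 of the 16 arrays, so 43 genes were tested among 20439 genes in all. Of these 43, 42 were well above background on all 16 arrays.

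Each ovary sample was read on 1 single-colour array, with 4 rats in each of 4 groups: BRCA1+/- with olaparib, BRCA1+/- with vehicle, wild-type with olaparib and wild-type with vehicle. BRCA1+/- rats carry an altered and an intact copy of Brca1, and the kind of alteration is not given in the sources used here. Olaparib, which blocks PARP enzymes that sense single-strand breaks, was given at 50 mg/kg under the skin each day for 14 days to rats 3 weeks old at the start, and ovaries were removed 24 h after the last dose. The vehicle and its schedule are not given in the sources used here. A whole ovary holds many cell types, so fewer cells of a type and less RNA per cell cannot be told apart in any value given here.

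Homologous recombination mends a DNA break by copying the intact sister chromatid. Nucleases trim the broken ends, RPA coats the exposed strand, and the broken strand is then paired with the matching sequence, a step that BRCA1 and BRCA2 assist. Fanconi proteins remove crosslinks that join the strands ahead of a replication fork, and end joining seals broken ends without a template. Cells that lack homologous recombination are sensitive to PARP inhibitors. In the ovary of a young rat the granulosa cells of growing follicles divide, while oocytes rest in meiotic arrest.

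A value in the text is a log2 signal, the log2 intensity of a gene's probe minus the 75th percentile of its array, unless it is called a difference. A log2 difference is the mean of a group minus the mean of the group it is set against. The interaction is the olaparib difference in BRCA1+/- rats minus that in wild-type rats. Log2 signals of different genes come from different probes and are not compared. Every probe was 60 bases long, and those of 6 genes on which the values below turn most are shown 5′ to 3′, since each such stretch is all of the transcript that a value rests on.
Rad54l: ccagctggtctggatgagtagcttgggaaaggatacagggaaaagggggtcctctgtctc
Rad51ap1: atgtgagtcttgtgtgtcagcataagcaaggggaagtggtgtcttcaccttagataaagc
Exo1: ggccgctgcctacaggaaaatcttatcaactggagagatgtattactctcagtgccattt
Eme1: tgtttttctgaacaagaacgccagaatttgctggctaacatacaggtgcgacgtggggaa
Gen1: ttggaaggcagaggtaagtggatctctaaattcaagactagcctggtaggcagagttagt
Nsmce2: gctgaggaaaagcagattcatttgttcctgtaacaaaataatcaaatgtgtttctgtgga

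In the rat build rn4 named in the array files, these probes lay at chr5:136234072-136234131 (plus strand) for Rad54l, chr4:163308939-163308998 (minus strand) for Rad51ap1 and chr13:91641965-91642024 (plus strand) for Exo1. Those of Eme1, Gen1 and Nsmce2 lay at chr10:83279191-83279250 (minus strand), chr6:34679831-34679890 (minus strand) and chr7:96335460-96335519 (plus strand). Positions are those of the files, and the exon or untranslated region they fall in was not looked up because no annotation of that build was used here. The promoter windows of Rad54l and Rpa2 in the rat build GRCr8 lie on the strand opposite to their probes in rn4. The reason was not tested. Of these 6 genes, only Rad51ap1 had a second probe that passed the filter on dim probes. The Gen1 probe matched the promoter windows of 18 other genes at 42 or more of its 60 bases, at most 46, while the other 42 probes used matched none at that level.

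The array files place replicates 1 and 2 of each group on slide 1 and replicates 3 and 4 on slide 2. An array's 75th percentile of signal was 202 at the lowest and 566 at the highest. Probes well above background made up 55.5% to 60.7% of an array. Markers of the ovary were present, with 9 of 9 granulosa, 7 of 7 theca and 11 of 12 oocyte markers passing the filter on dim probes. A mean score of 16 markers of oviduct and ciliated epithelium, tissue that borders the ovary, was above 0 on 6 arrays. It was 2.55 and 1.55 on BRCA1+/- olaparib replicates 3 and 4, 3.59 and 1.18 on BRCA1+/- vehicle replicates 3 and 4, and 3.46 and 2.94 on wild-type olaparib replicates 1 and 3. It lay between -2.11 and -1.28 on all 4 wild-type vehicle arrays. Leaving out the 6 arrays keeps only replicates 1 and 2 of both BRCA1+/- groups, all on slide 1, and replicates 2 and 4 of wild-type olaparib. Values without the 6 arrays thus cannot separate oviduct signal from slide or from the smaller number of arrays. Between the slides 1613 of the 20439 genes (7.89%) and 2 of the 43 repair genes (4.65%) differed at an adjusted p under 0.05 by limma, and these were Nbn and Rpa2.

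Brca1, the gene of the genotype, is not one of the 46. Brca1 measured -0.50, -0.82, -1.18 and -0.37 on the BRCA1+/- olaparib arrays, and -0.94, -0.78, -1.29 and -1.44 on the BRCA1+/- vehicle arrays. Wild-type arrays gave Brca1 -0.77, -0.74, 0.17 and -0.91 with olaparib, and -0.15, -0.11, -0.70 and -0.81 with vehicle. The values of BRCA1+/- vehicle and wild-type vehicle arrays overlapped, with 3 of the 4 BRCA1+/- arrays at or under -0.94 and the lowest wild-type array at -0.81. Its difference with vehicle was -0.67 (SE 0.27, unadjusted p 0.0265, adjusted p 0.863 by limma). Where the alteration lies relative to the probe is not given in the sources used here.

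With vehicle, most repair genes were lower in BRCA1+/- than in wild-type ovaries. Of 43 genes, 35 were lower in BRCA1+/- vehicle and 8 higher, and the median log2 difference was -0.27, where the median of all tested genes was -0.06 and 42.2% of them were higher. Rad54l, Mdc1, Rnf8, Blm, Eme1, Gen1, Fancb and Nsmce2 had an unadjusted p under 0.05 by limma, all of them lower. That is 8 of 43 genes, or 18.6%, where 5.47% of all genes had such a p. The Nsmce2 probe among them was well above background on 2 of 4 BRCA1+/- vehicle arrays. It passed the filter only through groups where it was higher. At an adjusted p under 0.05 no gene of the 43 passed, nor did any of the 20439 (0%), and the lowest adjusted p of a repair gene was 0.863. In 6 of the 43 genes every BRCA1+/- vehicle array lay under every wild-type vehicle array, and in 0 genes above it, where 2.18% and 1.24% of all genes did so. The median was -0.23 on slide 1 and -0.32 on slide 2.

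The count of 8 genes depended on the arrays. It was 0 without the 6 arrays of high oviduct score, where the median difference was -0.20 and 11 of 43 genes were higher. At that setting BRCA1+/- vehicle keeps only replicates 1 and 2, both on slide 1. The count was 2 without BRCA1+/- vehicle replicate 4, and 4 without BRCA1+/- vehicle replicate 3 or wild-type vehicle replicate 1 or 2. It was 12 without BRCA1+/- vehicle replicate 1 and 13 without wild-type vehicle replicate 3. Counts over all genes with arrays left out are not given here. With normexp background correction, which also adds an offset of 50 to every signal, the count was 5. Over all 20439 genes it was then 764, against 1119 in the main fit. Beside the repair genes, 16 of 16 tested oviduct markers were higher in BRCA1+/- vehicle (median 2.28). Their scores were -1.95 to 3.59 in BRCA1+/- vehicle and -2.11 to -1.28 in wild-type vehicle. Of 9 granulosa markers 7 were lower (median -0.40), among them Fst, which encodes the activin binder follistatin, at -1.11 (SE 0.26, adjusted p 0.863 by limma). Also higher in BRCA1+/- vehicle were 8 of 8 red blood cell markers (median 0.39, scores of 0.20 to 1.00 in BRCA1+/- vehicle and -0.11 to 0.77 in wild-type vehicle). So were 8 of 10 adipocyte markers (median 0.97, scores of -0.47 to 0.69 in BRCA1+/- vehicle and -2.04 to 0.18 in wild-type vehicle) and 8 of 10 T and NK cell markers (median 0.38, scores of 0.12 to 0.65 in BRCA1+/- vehicle and -0.56 to 0.16 in wild-type vehicle). Surface epithelium markers were higher there in 8 of 9 cases (median 0.43), and oocyte markers in 8 of 11 (median 0.42). The part of these cell types in the repair genes' values was not tested.

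Olaparib against vehicle in BRCA1+/- rats had the opposite sign for most genes. The repair genes were higher in 36 and lower in 7 cases, with a median of 0.19 against 0.02 for all genes, of which 52.9% were higher. Gen1 and Nsmce2 had an unadjusted p under 0.05 by limma, both higher, which is 4.65% of the 43 genes against 1.17% of all genes. The Nsmce2 probe was well above background on 2 of 4 BRCA1+/- vehicle arrays, and passed the filter only through groups where it was higher. The Gen1 probe resembles windows of 18 other genes, so the 4.65% is not read as an excess. No gene passed at an adjusted p under 0.05 (0% of all genes, adjusted p 1 for every repair gene). Arrays did not overlap in 2 of 43 genes, Xrcc2 and Nsmce2, both higher, and in 0 genes lower, where 0.494% of all genes were apart upward and 0.616% downward. The median was 0.15 on slide 1 and 0.25 on slide 2. Leaving out the arrays of high oviduct score keeps only the slide 1 arrays of both groups, and so gives the same 0.15. The median was 0.11 without BRCA1+/- vehicle replicate 3 and 0.32 without BRCA1+/- olaparib replicate 3. The count of 2 genes was 0 with normexp background correction, where 143 of all 20439 genes had such a p, against 240 in the main fit. It was 1 without the high oviduct arrays, BRCA1+/- olaparib replicate 1 or BRCA1+/- vehicle replicate 2 or 3. Counts over all genes with arrays left out are not given here. Leaving out replicate 3 of wild-type olaparib gave 4 repair genes, replicate 3 of BRCA1+/- olaparib 7 and replicate 1 of BRCA1+/- vehicle 8. Beside it, 8 of 8 red blood cell markers (median -0.66, scores of -2.22 to 0.63 in BRCA1+/- olaparib and 0.20 to 1.00 in BRCA1+/- vehicle) were lower with olaparib, and 9 of 9 surface epithelium markers (median 0.28, scores of -0.89 to 1.00 in BRCA1+/- olaparib and -0.95 to 1.24 in BRCA1+/- vehicle) were higher. So were 7 of 9 granulosa markers (median 0.21, scores of -0.22 to 0.58 in BRCA1+/- olaparib and -0.55 to -0.02 in BRCA1+/- vehicle). Lower were 8 of 10 T and NK cell markers (median -0.34) and 6 of 9 endothelium markers (median -0.33). The part of these cell types was not tested. This comparison and that of the genotypes with vehicle share the BRCA1+/- vehicle arrays, so their signs are not independent of each other.

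Olaparib against vehicle in wild-type rats gave 9 genes higher and 34 lower, with a median of -0.16 against -0.07 for all genes, of which 39.1% were higher. An unadjusted p under 0.05 by limma was found for 0 of 43 genes, against 4.39% of all genes, and no gene passed after adjustment (0% of all genes, lowest adjusted p of a repair gene 0.959). No repair gene had arrays that lay apart, where 0.568% of all genes did so upward and 0.616% downward. Within slides the median was -0.32 on slide 1 and 0.03 on slide 2, so its sign differed between the slides. It was -0.15 without the arrays of high oviduct score and -0.10 without wild-type olaparib replicate 1. Beside it, all 16 tested oviduct markers were higher (median 2.59), and 8 of 10 adipocyte markers were higher (median 2.35, scores of -1.70 to 3.09 in wild-type olaparib and -2.04 to 0.18 in wild-type vehicle). Also higher were 8 of 9 surface epithelium markers (median 1.12, scores of -2.01 to 1.87 in wild-type olaparib and -1.53 to 0.23 in wild-type vehicle), and lower were 9 of 11 macrophage markers (median -0.62, scores of -1.18 to 0.38 in wild-type olaparib and -0.33 to 0.58 in wild-type vehicle). Their part in the repair genes' values was not tested.

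BRCA1+/- against wild-type rats under olaparib gave 32 genes higher and 11 lower, and small sizes, with a median of 0.10 against 0.02 for all genes, of which 53.2% were higher. An unadjusted p under 0.05 by limma was found for 0 of 43 genes (0.925% of all genes), and none passed after adjustment (0% of all genes). No repair gene had arrays apart, where 0.342% of all genes were apart upward and 0.259% downward. The median was 0.22 on slide 1 and -0.06 on slide 2, and leaving out wild-type olaparib replicate 1 gave 0.01. Leaving out replicate 1 or 4 of BRCA1+/- olaparib gave 0.05 or 0.06, and leaving out replicate 3 of either olaparib group gave 0.17. Without the 6 arrays of high oviduct score it was 0.16, and with normexp background correction 0.05, with 25 of 43 genes higher. Beside it, 16 of 16 oviduct markers (median -0.82, scores of -1.65 to 2.55 in BRCA1+/- olaparib and -1.48 to 3.46 in wild-type olaparib) were lower in BRCA1+/- olaparib. Higher there were 11 of 11 macrophage markers (median 0.41, scores of -0.45 to 0.42 in BRCA1+/- olaparib and -1.18 to 0.38 in wild-type olaparib). So were 9 of 9 endothelium markers (median 0.19, scores of -0.29 to 0.50 in BRCA1+/- olaparib and -1.08 to 0.72 in wild-type olaparib). Oocyte markers were higher in 10 of 11 cases (median 0.32). Lower there were 8 of 10 adipocyte markers (median -0.95) and 8 of 9 surface epithelium markers (median -0.26). Their part in the repair genes' values was not tested.

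The interaction asks whether the olaparib difference depended on genotype. It was above 0 in 39 of 43 genes, with a median of 0.31 against 0.08 for all genes, of which 57.9% were above 0. The median 95% interval of a single gene's interaction was 1.37 wide, so most sizes of this order could not be told from 0. Rad54l, Rnf8 and Eme1 had an unadjusted p under 0.05 by limma, which is 6.98% of the 43 genes against 3.44% of all genes, and no gene passed after adjustment (0% of all genes, lowest adjusted p of a repair gene 0.967). The median was 0.48 on slide 1, 0.17 on slide 2 and 0.36 without the arrays of high oviduct score, where 34 of 43 genes were above 0. The count of 3 genes was 0 without the high oviduct arrays or without BRCA1+/- olaparib replicate 1 or 4, and 1 without wild-type olaparib replicate 1 or wild-type vehicle replicate 2. Leaving out replicate 4 of wild-type vehicle gave 5, replicate 1 of BRCA1+/- vehicle or replicate 3 of wild-type vehicle 8, and replicate 3 of BRCA1+/- olaparib 9. With normexp background correction it was 2. Counts over all genes at these settings are not given here. Beside the interaction of the repair genes, 16 of 16 oviduct markers (median -2.79) and 8 of 10 adipocyte markers (median -2.37) were below 0. So were 8 of 9 surface epithelium markers (median -0.78), and the part of these cell types was not tested.

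**Figure D1:**
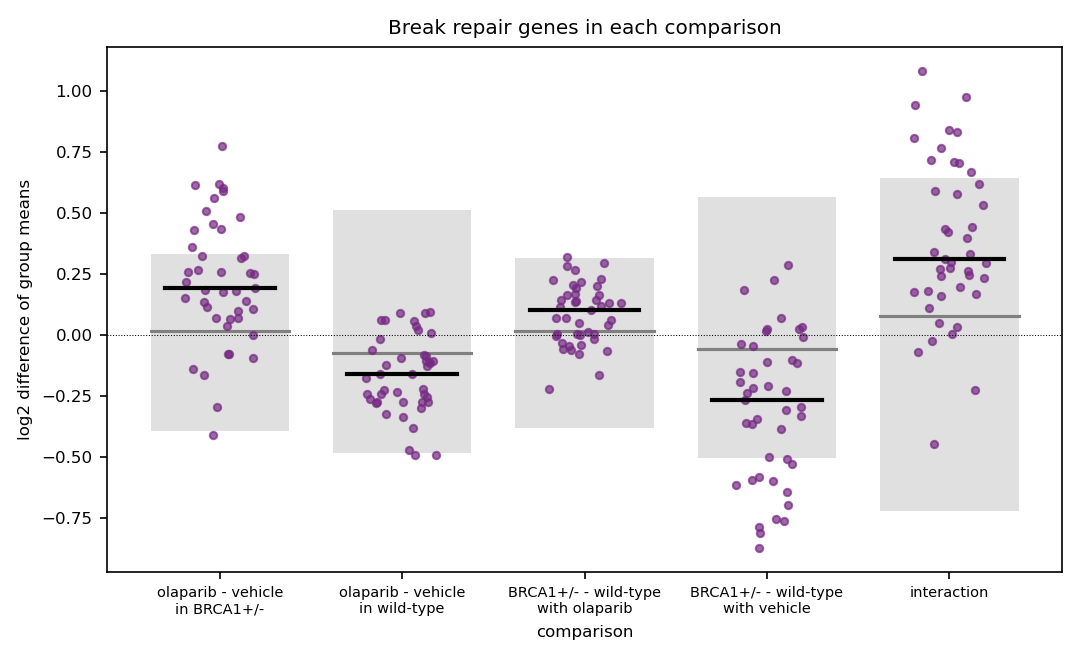
Each point is 1 of 43 break repair genes and the vertical axis is its log2 difference of group means, with a column for each of the 5 comparisons. Black lines are medians of the repair genes, from -0.27 for BRCA1+/- against wild-type with vehicle to 0.31 for the interaction, grey lines are medians of all 20439 tested genes and grey boxes span their 10th to 90th percentile.

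Averaged over the 43 genes after centring each over the 16 arrays, the repair score was 0.23, 0.02, -0.17 and 0.15 on the BRCA1+/- olaparib arrays and 0.04, -0.10, -0.34 and -0.25 on the BRCA1+/- vehicle arrays. With olaparib the wild-type arrays scored -0.22, 0.01, 0.17 and -0.08, and with vehicle 0.27, 0.28, -0.05 and 0.04. The lowest array was BRCA1+/- vehicle replicate 3 and the highest wild-type vehicle replicate 2, and all groups overlapped. Group means were 0.06 ± 0.18 for BRCA1+/- olaparib, -0.16 ± 0.16 for BRCA1+/- vehicle, -0.03 ± 0.16 for wild-type olaparib and 0.14 ± 0.16 for wild-type vehicle (SD, n = 4 each).

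**Figure D2:**
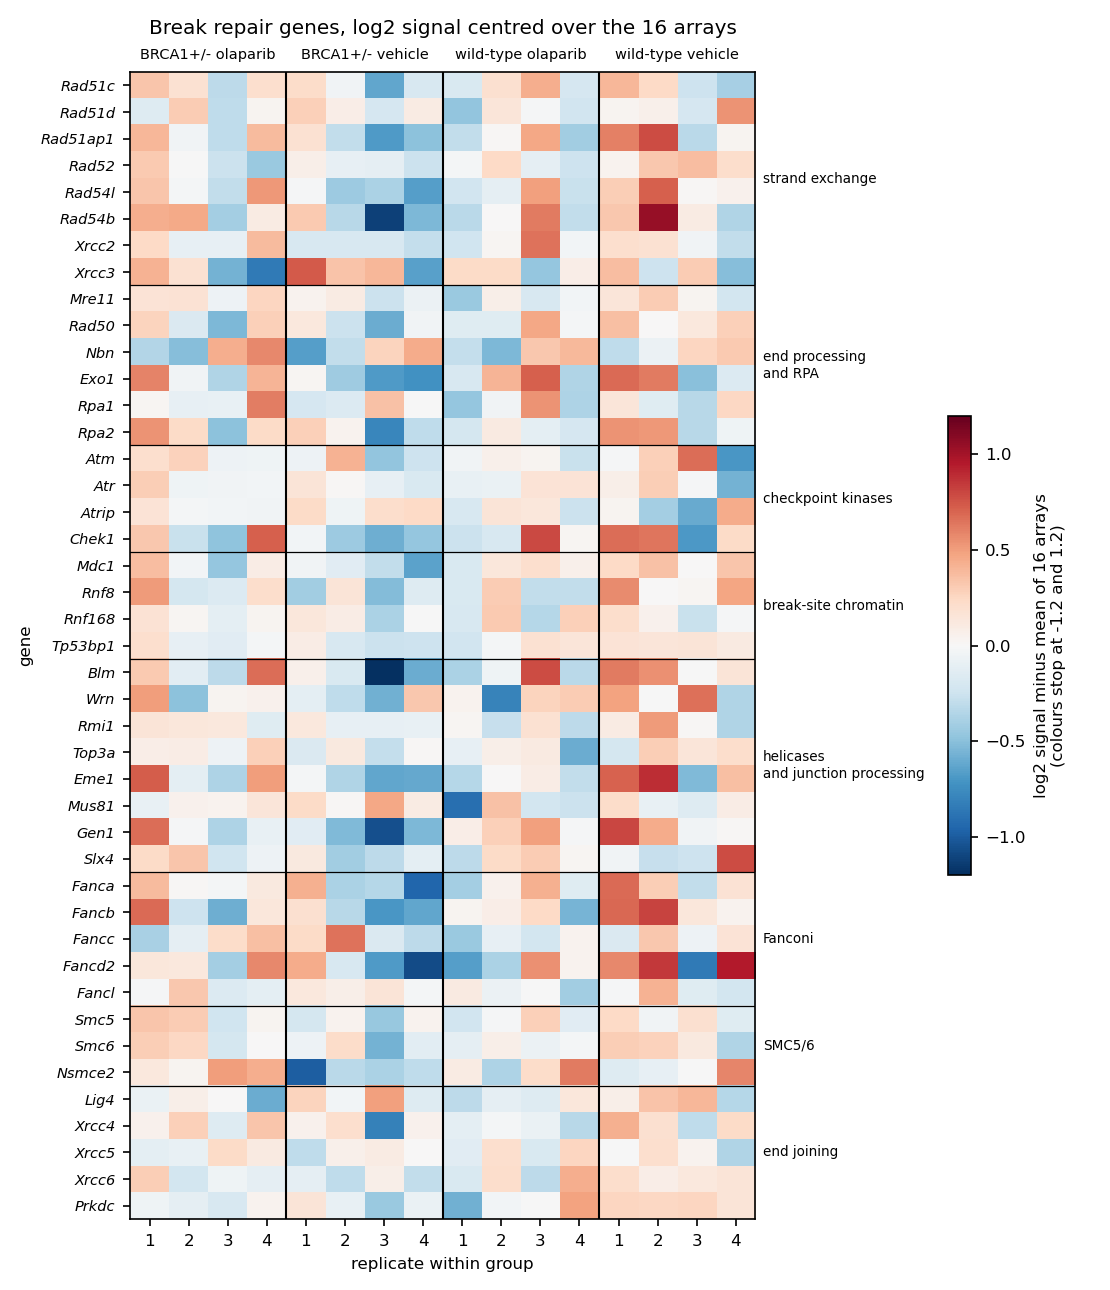
Rows are the 43 break repair genes by role and columns the 16 arrays by group and replicate, and colour gives the log2 signal minus the gene's mean over 16 arrays. Columns of several groups are mostly red or mostly blue, such as BRCA1+/- vehicle replicate 3 (score -0.34) and wild-type vehicle replicate 2 (score 0.28), and the rows of Rad54b, Fancd2 and Blm have the widest ranges (2.17, 2.02 and 1.98).

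Among 8 genes of strand exchange, the step in which the broken strand is paired with its partner, 7 were lower in BRCA1+/- vehicle than in wild-type vehicle (median -0.28) and 7 had an interaction above 0 (median 0.25). Rad54l encodes a motor protein that acts on the intact duplex during strand pairing. Rad54l measured 0.15, -0.21, -0.49 and 0.34 on the BRCA1+/- olaparib arrays, and -0.20, -0.62, -0.57 and -0.85 on the BRCA1+/- vehicle arrays. Wild-type arrays gave Rad54l -0.42, -0.29, 0.30 and -0.46 with olaparib, and 0.11, 0.53, -0.18 and -0.14 with vehicle. The BRCA1+/- vehicle arrays were all under the wild-type vehicle arrays, while the olaparib groups overlapped. Its difference between BRCA1+/- and wild-type with vehicle was -0.64 (SE 0.24, 95% interval -1.16 to -0.13, unadjusted p 0.0173, adjusted p 0.863), and -0.73 on slide 1 and -0.55 on slide 2. An exact permutation test gave 0.0286, the smallest p that 4 against 4 arrays allow. For olaparib in BRCA1+/- rats the limma difference was 0.51 (SE 0.24, 95% interval 0.00 to 1.02, unadjusted p 0.0514, adjusted p 1), and the interaction was 0.81 (SE 0.34, 95% interval 0.08 to 1.53, unadjusted p 0.0314, adjusted p 0.967).

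Rad51ap1, whose product stimulates strand pairing, followed the same order of groups without arrays lying apart. Rad51ap1 measured 0.94, 0.50, 0.23 and 0.92 on the BRCA1+/- olaparib arrays, and 0.72, 0.24, -0.14 and 0.05 on the BRCA1+/- vehicle arrays. Wild-type arrays gave Rad51ap1 0.24, 0.55, 1.00 and 0.12 with olaparib, and 1.14, 1.33, 0.22 and 0.57 with vehicle. Its interaction by limma was 0.76 (SE 0.40, 95% interval -0.10 to 1.63, unadjusted p 0.0782, adjusted p 0.967), and a second probe with an r of 0.91 to the first gave 0.93. Rad54b, a relative of Rad54l, had the widest range of the 43 genes over the 16 arrays. Rad54b measured -2.10, -2.08, -2.95 and -2.43 on the BRCA1+/- olaparib arrays, and -2.22, -2.87, -3.65 and -3.07 on the BRCA1+/- vehicle arrays. Wild-type arrays gave Rad54b -2.86, -2.53, -1.91 and -2.83 with olaparib, and -2.21, -1.49, -2.44 and -2.90 with vehicle. BRCA1+/- vehicle replicate 3 was its lowest array and wild-type vehicle replicate 2 its highest, and with vehicle BRCA1+/- differed from wild-type by -0.70 (SE 0.35, unadjusted p 0.0644 and adjusted p 0.863 by limma).

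Rad51c, Rad51d, Xrcc2 and Xrcc3 encode related proteins that act together in complexes during strand exchange. Rad51c, Rad51d and Xrcc2 had interactions of 0.20, 0.16 and 0.23. Xrcc2 was higher in all 4 BRCA1+/- olaparib arrays (-0.93 or more) than in any BRCA1+/- vehicle array (-1.02 or less), a difference of 0.32 (unadjusted p 0.124 by limma). Xrcc3 went the other way, with an interaction of -0.45. A second and dimmer Xrcc3 probe gave 1.89. That probe was well above background on 4 BRCA1+/- olaparib, 0 BRCA1+/- vehicle, 1 wild-type olaparib and 4 wild-type vehicle arrays. It passed the filter only through the groups where it was higher, so its value does not bear on the direction of Xrcc3. Rad52, an annealing protein, had an interaction of 0.27.

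**Figure D3:**
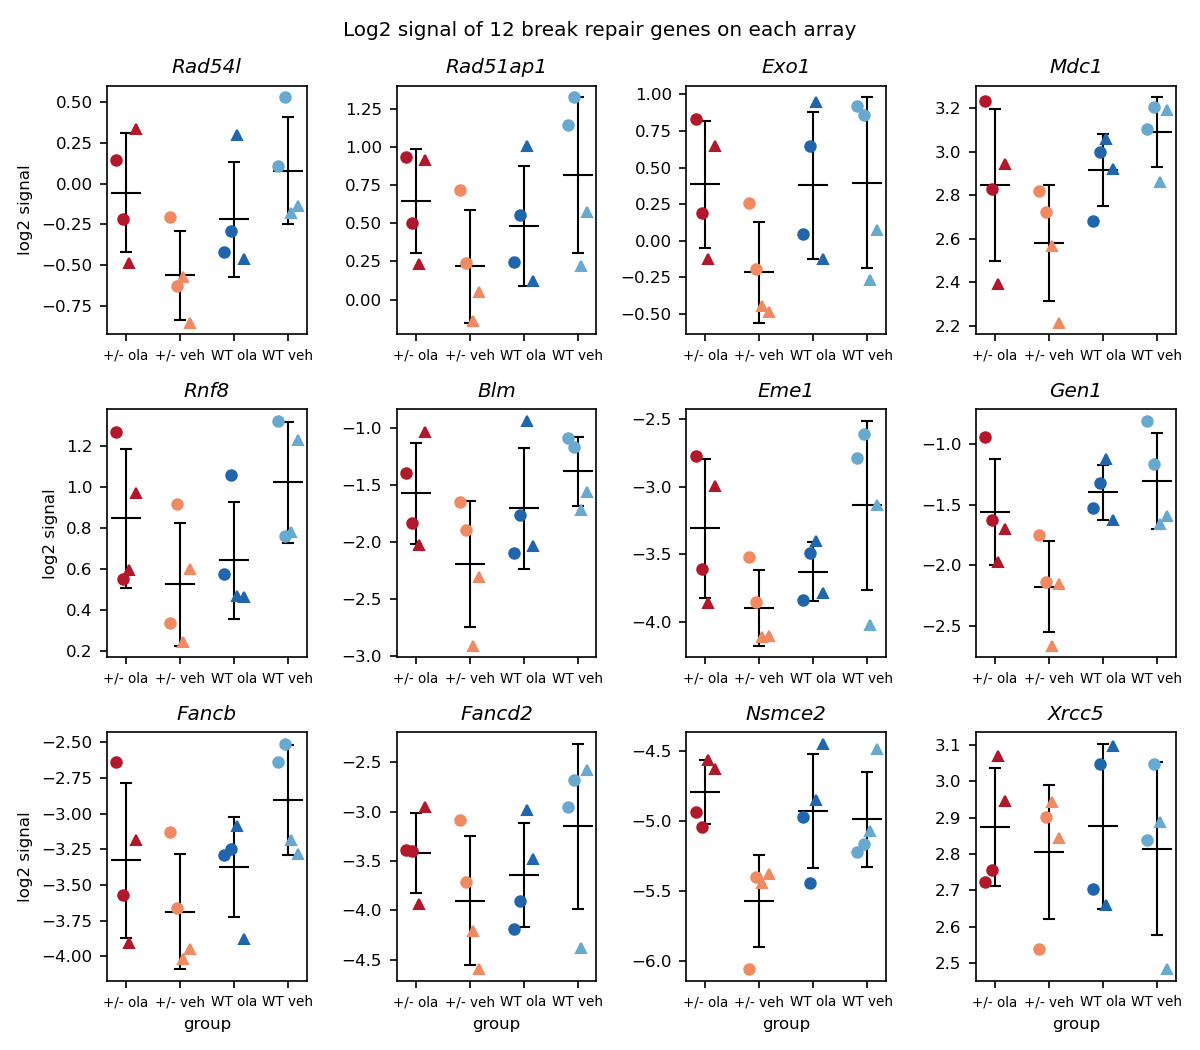
Log2 signal (vertical axis) of 12 break repair genes on each array, by group (BRCA1+/- olaparib, BRCA1+/- vehicle, wild-type olaparib, wild-type vehicle), with circles for slide 1, triangles for slide 2 and bars for mean and SD of 4 arrays. BRCA1+/- vehicle arrays lie under all wild-type vehicle arrays in the panels of Rad54l, Mdc1, Gen1 and Nsmce2, and Xrcc5 shows no such shift (difference -0.01).

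The 6 measured genes of end processing and RPA were all higher with olaparib in BRCA1+/- rats (median 0.16) and all lower with olaparib in wild-type rats (median -0.12), with interactions from 0.18 to 0.62. Exo1, a nuclease that trims broken ends, had the largest of these. Exo1 measured 0.83, 0.19, -0.13 and 0.64 on the BRCA1+/- olaparib arrays, and 0.26, -0.19, -0.45 and -0.49 on the BRCA1+/- vehicle arrays. Wild-type arrays gave Exo1 0.04, 0.64, 0.95 and -0.12 with olaparib, and 0.92, 0.86, -0.27 and 0.08 with vehicle. High and low arrays occurred in every group, and the interaction was 0.62 (SE 0.46, 95% interval -0.36 to 1.60, unadjusted p 0.199, adjusted p 0.967) by limma, with 1.02 on slide 1 and 0.22 on slide 2. Rpa2, a subunit of the RPA complex that coats exposed strands, had an interaction of 0.59 and differed between slides by -0.51 (slide 2 minus slide 1, adjusted p 0.0408 by limma).

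MRE11, RAD50 and NBN form the complex that first holds broken ends. Mre11 had the smallest unadjusted p of the 43 genes for BRCA1+/- against wild-type under olaparib. Mre11 measured -0.89, -0.88, -1.11 and -0.80 on the BRCA1+/- olaparib arrays, and -1.01, -0.95, -1.31 and -1.12 on the BRCA1+/- vehicle arrays. Wild-type arrays gave Mre11 -1.50, -0.98, -1.24 and -1.09 with olaparib, and -0.90, -0.75, -1.01 and -1.27 with vehicle. Groups overlapped, its difference under olaparib was 0.28 (SE 0.16, 95% interval -0.07 to 0.63, unadjusted p 0.104, adjusted p 1) by limma, and a second probe gave -0.03. Without wild-type olaparib replicate 1 it was 0.18. Nbn differed between slides, by 0.76 (slide 2 minus slide 1, adjusted p 0.000387 by limma), more than in any of the 5 comparisons. Nbn measured 0.50, 0.34, 1.29 and 1.43 on the BRCA1+/- olaparib arrays, and 0.19, 0.56, 1.12 and 1.30 on the BRCA1+/- vehicle arrays. Wild-type arrays gave Nbn 0.56, 0.31, 1.17 and 1.24 with olaparib, and 0.54, 0.78, 1.11 and 1.17 with vehicle. Replicates 3 and 4 were above replicates 1 and 2 in each group, and its interaction of 0.18 was 0.28 on slide 1 and 0.08 on slide 2. Rad50 and Rpa1 had interactions of 0.31 and 0.18.

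The checkpoint kinases ATM and ATR sense breaks and exposed strands, ATRIP carries ATR to RPA, and CHK1 passes the signal on to halt the cell cycle. Of these 4 genes, 2 had an interaction above 0 (median 0.14). Atm, Atr and Atrip had interactions of 0.29, -0.02 and -0.23, and a second Atm probe gave -0.26. Chek1 stood apart from them in size, at 0.58 (SE 0.48, 95% interval -0.45 to 1.60, unadjusted p 0.248, adjusted p 0.967) by limma. Chek1 measured -1.78, -2.37, -2.59 and -1.39 on the BRCA1+/- olaparib arrays, and -2.14, -2.54, -2.69 and -2.57 on the BRCA1+/- vehicle arrays. Wild-type arrays gave Chek1 -2.37, -2.30, -1.32 and -2.08 with olaparib, and -1.44, -1.46, -2.79 and -1.88 with vehicle. Its interaction was 1.15 on slide 1 and 0.01 on slide 2.

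MDC1, RNF8, RNF168 and 53BP1, the product of Tp53bp1, gather in that order on the chromatin around a break. All 4 genes were lower in BRCA1+/- vehicle than in wild-type vehicle (median -0.40) and had an interaction above 0 (median 0.35). Mdc1 measured 3.23, 2.83, 2.39 and 2.94 on the BRCA1+/- olaparib arrays, and 2.82, 2.72, 2.57 and 2.21 on the BRCA1+/- vehicle arrays. Wild-type arrays gave Mdc1 2.68, 3.00, 3.06 and 2.92 with olaparib, and 3.10, 3.21, 2.86 and 3.19 with vehicle. The vehicle groups did not overlap for Mdc1, with a difference of -0.51 (SE 0.19, 95% interval -0.92 to -0.10, unadjusted p 0.0192, adjusted p 0.863) by limma. It was -0.38 on slide 1 and -0.64 on slide 2, and the exact permutation test gave 0.0286. Tp53bp1 also had vehicle groups that did not overlap, with a smaller difference of -0.30 (unadjusted p 0.0576 by limma).

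Rnf8, a ubiquitin ligase that marks histones at the break, was read by 3 probes. Rnf8 measured 1.27, 0.55, 0.60 and 0.97 on the BRCA1+/- olaparib arrays, and 0.34, 0.91, 0.24 and 0.60 on the BRCA1+/- vehicle arrays. Wild-type arrays gave Rnf8 0.58, 1.06, 0.47 and 0.46 with olaparib, and 1.32, 0.76, 0.78 and 1.23 with vehicle. These are values of its brightest probe, and all 4 groups overlapped. By limma BRCA1+/- differed from wild-type with vehicle by -0.50 (SE 0.22, 95% interval -0.98 to -0.02, unadjusted p 0.0428, adjusted p 0.863). The olaparib difference in wild-type rats was -0.38 (SE 0.22, 95% interval -0.86 to 0.10, unadjusted p 0.111, adjusted p 0.959), and the interaction 0.71 (SE 0.32, 95% interval 0.03 to 1.39, unadjusted p 0.043, adjusted p 0.967). The other probes share a stretch, in capitals here, and had an r of 0.71 and 0.81 with the first.
Rnf8 upstream probe: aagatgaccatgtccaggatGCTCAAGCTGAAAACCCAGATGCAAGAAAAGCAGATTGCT
Rnf8 downstream probe: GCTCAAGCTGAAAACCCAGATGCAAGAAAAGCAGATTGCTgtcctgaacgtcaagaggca

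They overlap by 40 bases and lie at chr20:7941377-7941436 (plus strand) and chr20:7941397-7941456 (plus strand) of rn4, and the first probe at chr20:7948875-7948934 (plus strand). They gave interactions of 0.35 and 0.40, the same sign as the first probe and a smaller size. With the mean of the 3 probes the interaction was 0.48 (unadjusted p 0.232), and the difference with vehicle -0.25 (unadjusted p 0.382). Rnf168, which extends the mark, had an interaction of 0.05.

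Of 8 genes for helicases and enzymes that resolve joined DNA, 7 were lower in BRCA1+/- vehicle than in wild-type vehicle (median -0.30) and all 8 had an interaction above 0 (median 0.43). Eme1 encodes the partner of the nuclease MUS81, and had the largest interaction of the 43 genes. Eme1 measured -2.77, -3.61, -3.86 and -2.99 on the BRCA1+/- olaparib arrays, and -3.52, -3.86, -4.11 and -4.11 on the BRCA1+/- vehicle arrays. Wild-type arrays gave Eme1 -3.84, -3.49, -3.40 and -3.79 with olaparib, and -2.78, -2.61, -4.02 and -3.13 with vehicle. Every group but BRCA1+/- vehicle and wild-type olaparib spanned over 1 log2 unit. The interaction was 1.08 (SE 0.43, 95% interval 0.16 to 2.00, unadjusted p 0.0248, adjusted p 0.967) by limma, and 1.46 on slide 1 and 0.70 on slide 2. BRCA1+/- vehicle differed from wild-type vehicle by -0.76 (SE 0.31, 95% interval -1.41 to -0.11, unadjusted p 0.0255, adjusted p 0.863), and wild-type olaparib from wild-type vehicle by -0.49 (SE 0.31, 95% interval -1.14 to 0.16, unadjusted p 0.129, adjusted p 0.959). Leaving out an array moved the interaction between 0.90 and 1.38, and with normexp background correction it was 0.45 (unadjusted p 0.0988). The difference with vehicle was then -0.38 (unadjusted p 0.0556).

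Mus81 itself had an interaction of 0.11. Mus81 measured -0.73, -0.59, -0.60 and -0.50 on the BRCA1+/- olaparib arrays, and -0.42, -0.63, -0.18 and -0.55 on the BRCA1+/- vehicle arrays. Wild-type arrays gave Mus81 -1.55, -0.29, -0.86 and -0.90 with olaparib, and -0.43, -0.73, -0.80 and -0.55 with vehicle. Wild-type olaparib replicate 1 was the lowest array, and its difference between BRCA1+/- and wild-type under olaparib was 0.29 (SE 0.22, 95% interval -0.17 to 0.76, unadjusted p 0.197, adjusted p 1) by limma. It was 0.08 without that array and -0.06 without the 6 arrays of high oviduct score.

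Gen1, a nuclease that cuts Holliday junctions, had the smallest unadjusted p of the 43 genes for BRCA1+/- against wild-type with vehicle. Gen1 measured -0.94, -1.63, -1.98 and -1.70 on the BRCA1+/- olaparib arrays, and -1.75, -2.14, -2.67 and -2.15 on the BRCA1+/- vehicle arrays. Wild-type arrays gave Gen1 -1.53, -1.32, -1.12 and -1.62 with olaparib, and -0.81, -1.16, -1.66 and -1.60 with vehicle. BRCA1+/- vehicle arrays were all under wild-type vehicle arrays, with a difference of -0.87 (SE 0.26, 95% interval -1.43 to -0.31, unadjusted p 0.0048, adjusted p 0.863) by limma (exact permutation p 0.0286). It was -0.96 on slide 1 and -0.78 on slide 2, and -0.64 without the high oviduct arrays. With olaparib BRCA1+/- arrays were higher than with vehicle by 0.62 (SE 0.26, 95% interval 0.06 to 1.17, unadjusted p 0.0333, adjusted p 1), and these groups overlapped. With normexp background correction these differences were -0.53 (unadjusted p 0.0109) and 0.31 (unadjusted p 0.114). The Gen1 probe is the one whose sequence resembles windows of other genes, and whether other transcripts added to its signal was not tested.

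Blm encodes the helicase that, with TOP3A and RMI1, separates joined DNA. Blm measured -1.40, -1.84, -2.02 and -1.04 on the BRCA1+/- olaparib arrays, and -1.65, -1.89, -2.91 and -2.31 on the BRCA1+/- vehicle arrays. Wild-type arrays gave Blm -2.10, -1.76, -0.93 and -2.03 with olaparib, and -1.09, -1.16, -1.72 and -1.56 with vehicle. BRCA1+/- vehicle differed from wild-type vehicle by -0.81 (SE 0.32, 95% interval -1.50 to -0.12, unadjusted p 0.0242, adjusted p 0.863) by limma, and by -0.39 without the high oviduct arrays. A second Blm probe, well above background on 13 arrays, had an r of -0.03 with the first and gave 0.42, so the direction depends on the probe. With the mean of both probes the difference was -0.19 (unadjusted p 0.491), and with normexp background correction -0.52 (unadjusted p 0.0235). Top3a differed between BRCA1+/- and wild-type under olaparib by 0.23 (SE 0.18, 95% interval -0.17 to 0.62, unadjusted p 0.236, adjusted p 1), and its second probe gave -0.12. Top3a measured 1.57, 1.58, 1.43 and 1.78 on the BRCA1+/- olaparib arrays, and 1.31, 1.61, 1.20 and 1.51 on the BRCA1+/- vehicle arrays. Wild-type arrays gave Top3a 1.39, 1.56, 1.60 and 0.89 with olaparib, and 1.28, 1.79, 1.64 and 1.70 with vehicle. Wild-type olaparib replicate 4 was its lowest array, and without it the difference was 0.07. Rmi1, Wrn and Slx4 had interactions of 0.27, 0.43 and 0.24, and of 3 other Wrn probes 2 were below 0.

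The 5 measured Fanconi genes split by size. Fanca and Fancb, subunits of the core complex, and Fancd2, which that complex marks with ubiquitin at a crosslink, had interactions of 0.67, 0.83 and 0.97. Fancc, a core subunit, and Fancl, the ligase of the complex, had 0.17 and 0.03. Fancb measured -2.64, -3.57, -3.90 and -3.18 on the BRCA1+/- olaparib arrays, and -3.13, -3.66, -4.02 and -3.94 on the BRCA1+/- vehicle arrays. Wild-type arrays gave Fancb -3.29, -3.25, -3.08 and -3.88 with olaparib, and -2.64, -2.51, -3.19 and -3.28 with vehicle. BRCA1+/- vehicle differed from wild-type vehicle by -0.78 (SE 0.30, 95% interval -1.42 to -0.15, unadjusted p 0.0186, adjusted p 0.863) by limma, with -0.82 on slide 1 and -0.75 on slide 2, and BRCA1+/- vehicle replicate 1 lay above the wild-type arrays of slide 2. In wild-type rats olaparib differed from vehicle by -0.47 (SE 0.30, 95% interval -1.10 to 0.16, unadjusted p 0.133, adjusted p 0.959). With normexp background correction these were -0.34 (unadjusted p 0.0784) and -0.25 (unadjusted p 0.194).

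Fancd2 varied widely within groups. Fancd2 measured -3.39, -3.40, -3.94 and -2.95 on the BRCA1+/- olaparib arrays, and -3.08, -3.72, -4.21 and -4.60 on the BRCA1+/- vehicle arrays. Wild-type arrays gave Fancd2 -4.19, -3.91, -2.98 and -3.48 with olaparib, and -2.95, -2.68, -4.38 and -2.58 with vehicle. It spanned 2.02 log2 units, with BRCA1+/- vehicle replicate 4 the lowest and wild-type vehicle replicate 4 the highest array, and its difference with vehicle was -0.75 (SE 0.42, 95% interval -1.65 to 0.14, unadjusted p 0.0922, adjusted p 0.863) by limma. Fanca spanned 1.64 log2 units. Fanca measured -1.04, -1.41, -1.45 and -1.31 on the BRCA1+/- olaparib arrays, and -1.00, -1.81, -1.77 and -2.38 on the BRCA1+/- vehicle arrays. Wild-type arrays gave Fanca -1.83, -1.37, -1.00 and -1.57 with olaparib, and -0.74, -1.13, -1.72 and -1.25 with vehicle. BRCA1+/- vehicle replicate 4 was again the lowest array, and its difference with vehicle was -0.53 (SE 0.28, 95% interval -1.13 to 0.07, unadjusted p 0.0787, adjusted p 0.863) by limma.

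SMC5 and SMC6 form a ring that holds sister chromatids during repair, and NSMCE2 is its SUMO ligase. All 3 genes were lower in BRCA1+/- vehicle (median -0.22) and higher with olaparib in BRCA1+/- rats (median 0.25). Nsmce2 measured -4.94, -5.04, -4.57 and -4.63 on the BRCA1+/- olaparib arrays, and -6.06, -5.40, -5.45 and -5.38 on the BRCA1+/- vehicle arrays. Wild-type arrays gave Nsmce2 -4.97, -5.44, -4.85 and -4.45 with olaparib, and -5.22, -5.16, -5.07 and -4.49 with vehicle. BRCA1+/- vehicle arrays lay under all BRCA1+/- olaparib and all wild-type vehicle arrays. Olaparib differed from vehicle in BRCA1+/- rats by 0.78 (SE 0.24, 95% interval 0.26 to 1.29, unadjusted p 0.00583, adjusted p 1) by limma, and the exact permutation test gave 0.0286. Within slides this came to 0.74 (slide 1) and 0.81 (slide 2). With vehicle BRCA1+/- differed from wild-type by -0.58 (SE 0.24, 95% interval -1.10 to -0.07, unadjusted p 0.0288, adjusted p 0.863). The Nsmce2 probe was well above background on 4 BRCA1+/- olaparib, 2 BRCA1+/- vehicle, 4 wild-type olaparib and 3 wild-type vehicle arrays, and a second probe was well above background on 0 arrays. The probe used thus passed the filter only through groups where it was higher than in BRCA1+/- vehicle. With normexp background correction the Nsmce2 differences were 0.02 (unadjusted p 0.94) for olaparib in BRCA1+/- rats and -0.17 (unadjusted p 0.462) with vehicle, so both depend on how the background was handled. Smc5 and Smc6 had interactions of 0.34 and 0.33.

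Of 5 end joining genes, 4 had an interaction above 0 (median 0.25). Xrcc5 and Xrcc6 encode the Ku pair that caps broken ends, Prkdc the kinase that Ku recruits, and Xrcc4 and Lig4 the ligase that seals them. Xrcc5 measured 2.72, 2.76, 3.07 and 2.95 on the BRCA1+/- olaparib arrays, and 2.54, 2.90, 2.94 and 2.84 on the BRCA1+/- vehicle arrays. Wild-type arrays gave Xrcc5 2.70, 3.05, 2.66 and 3.10 with olaparib, and 2.84, 3.05, 2.89 and 2.48 with vehicle. All groups overlapped, with an interaction of 0.00 (SE 0.24, 95% interval -0.51 to 0.52, unadjusted p 0.984, adjusted p 1) by limma. Lig4, Xrcc6 and Prkdc had interactions of -0.07, 0.25 and 0.30, and Xrcc4 one of 0.53. Xrcc6 was lower in all BRCA1+/- vehicle arrays than in any wild-type vehicle array, a difference of -0.30 (unadjusted p 0.114 by limma). Other probes of Lig4 and Prkdc gave interactions of the other sign.

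Outside the 46 genes, 69 of 72 further genes of the pathway were tested, among them Brca1. They were lower in 60 and higher in 9 cases for BRCA1+/- against wild-type with vehicle (median -0.18), and higher in 59 and lower in 10 for olaparib in BRCA1+/- rats (median 0.18). Olaparib in wild-type rats gave a median of -0.13, BRCA1+/- against wild-type under olaparib 0.11 and the interaction 0.31. None passed after adjustment by limma. With vehicle 4 of the 69 had an unadjusted p under 0.05 by limma, all lower, where 5.47% of all genes had such a p. Paxx, an end joining factor, differed by -0.53 there (SE 0.18, adjusted p 0.863 by limma). Zswim7, a homologous recombination factor, had an interaction of 0.71 (SE 0.27, adjusted p 0.967 by limma), and Rmi2, a subunit beside RMI1, was 0.57 higher with olaparib in BRCA1+/- rats (SE 0.27, adjusted p 1 by limma).

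Of 20 genes of meiotic recombination 10 were tested, and their median interaction was 0.21 with 6 above 0 and 4 below, the meiotic mismatch gene Msh5 at 0.73 (SE 0.33, adjusted p 0.967 by limma). Targets of p53, which mark a damage response, were centred near 0 in every comparison. Of 20 tested, 10 were higher with olaparib in BRCA1+/- rats (median -0.01), and 10 in wild-type rats (median 0.01). The p53 target with the smallest unadjusted p for the interaction was Pmaip1, a cell death gene, at -1.33 (SE 0.62, adjusted p 0.967 by limma).

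The repair genes varied over the arrays alongside cell cycle genes. A score of 52 genes of DNA replication and mitosis, none of them among the 46, had the same sign as the repair score on 16 of 16 arrays. Its group means were 0.12 ± 0.41 in BRCA1+/- olaparib, -0.29 ± 0.34 in BRCA1+/- vehicle, -0.01 ± 0.32 in wild-type olaparib and 0.18 ± 0.48 in wild-type vehicle (SD, n = 4 each). The 52 genes had a median difference of 0.43 for olaparib in BRCA1+/- rats (50 higher), -0.51 for BRCA1+/- against wild-type with vehicle (50 lower) and 0.66 for the interaction (50 above 0), each larger than that of the repair genes. None passed after adjustment by limma, and Gmnn, a brake on replication licensing, was 0.85 higher with olaparib in BRCA1+/- rats (SE 0.28, adjusted p 1). Aurka, a mitotic kinase, was 1.19 higher in BRCA1+/- vehicle than in wild-type vehicle (SE 0.41, adjusted p 0.863), 1 of 2 genes of the list that were higher there.

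**Figure D4:**
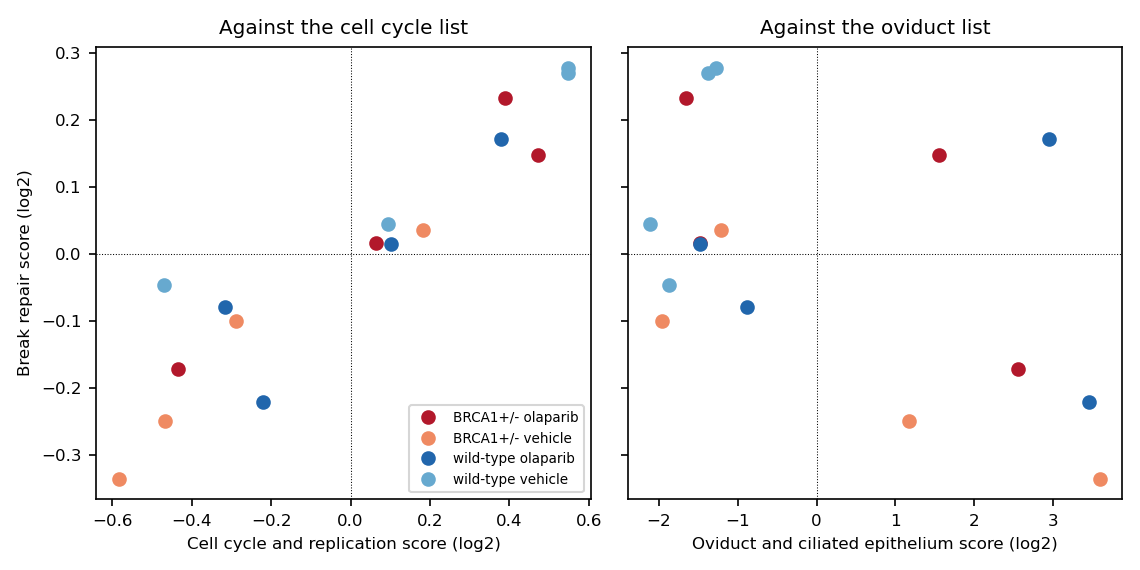
Each point is 1 of 16 arrays coloured by group, with its repair score of 43 genes (vertical axis, log2) against the cell cycle score (left) and the oviduct score (right). Repair and cell cycle scores share their sign on all 16 arrays, and the 6 arrays with an oviduct score above 0 span repair scores from -0.34 to 0.17.

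Of the 43 genes, 12 had a Pearson r over 0.8 with the cell cycle score across the 16 arrays (27.9%), against 249 of 20344 other genes (1.22%), and the median r was 0.49 against 0.00. The points are the same 16 arrays for every gene, so they share signal strength and tissue makeup. The highest were Rad51ap1 (r 0.97, rho 0.97), Exo1 (r 0.95, rho 0.94) and Eme1 (r 0.93, rho 0.96), each with a permutation p of 1e-05, the smallest that 100000 permutations can give, and an adjusted p of 0.00198 for r and 0.00265 for rho. Without the 2 arrays farthest from the median of the score, r was 0.97, 0.93 and 0.92. It was 0.98, 0.93 and 0.95 within slide 1 and 0.97, 0.94 and 0.93 within slide 2. Among the 10 arrays of low oviduct score it was 0.96, 0.94 and 0.94, and after each group's mean was taken out 0.97, 0.96 and 0.94, so the likeness was present between animals of the same group.

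In all, 14 of the 43 genes (32.6%) had an adjusted permutation p under 0.05 for r, adjusted over the 20387 genes outside the cell cycle list, against 2.96% of other genes, and 13 had one for both r and rho. The other 9 with an r over 0.8 were Chek1, Blm, Rad54l, Rpa2, Fancb, Rad51c, Fancd2, Fanca and Rad54b. The 3 lowest were Nbn (r -0.31, rho -0.29, permutation p 0.232), Lig4 (r -0.29, rho -0.28, permutation p 0.27) and Xrcc5 (r -0.25, rho -0.20, permutation p 0.35). By role, the median r was 0.83 for Fanconi genes, 0.75 for strand exchange, 0.62 for end processing and RPA and 0.56 for break-site chromatin. It was 0.49 for SMC5/6, 0.41 for helicases and junction processing, 0.25 for checkpoint kinases and 0.12 for end joining.

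**Figure D5:**
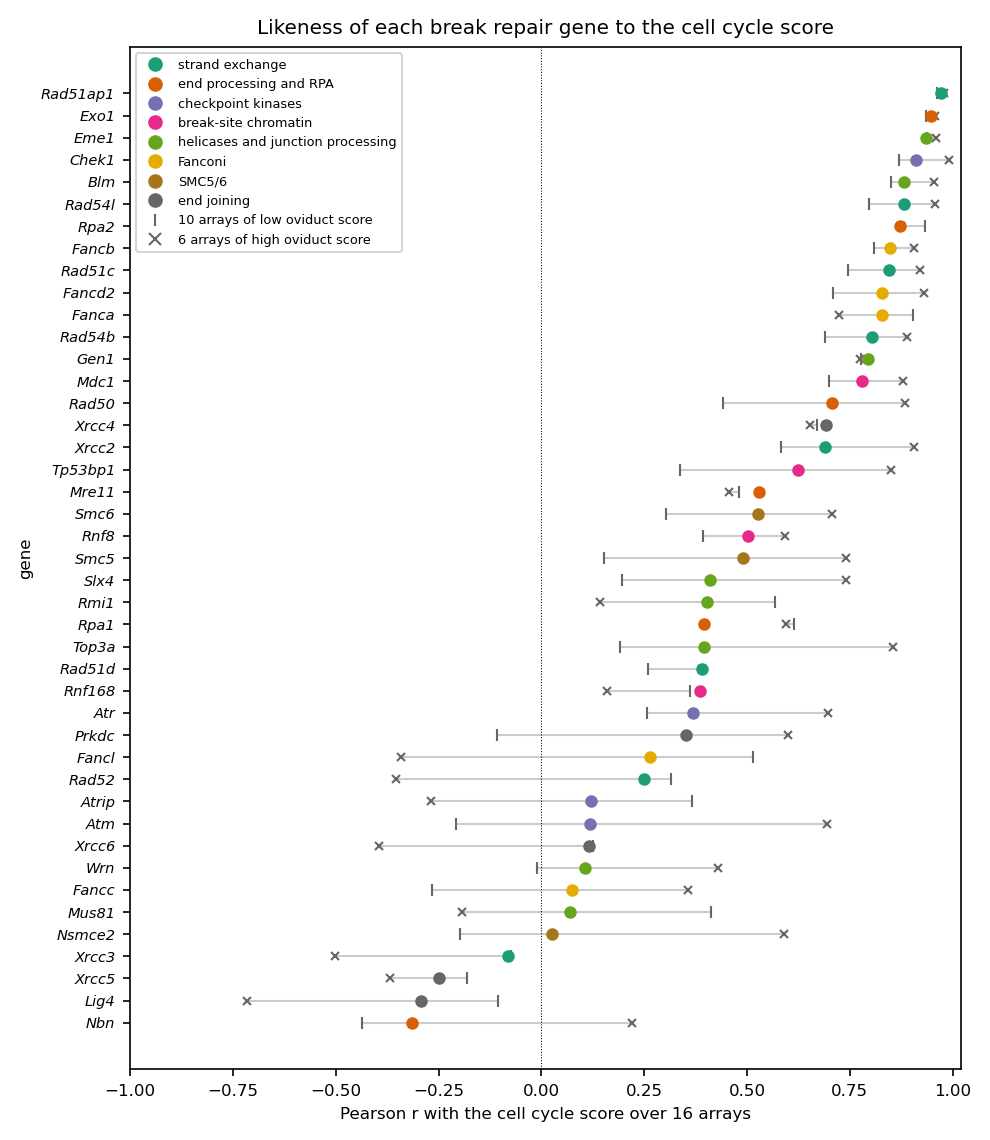
Each row is 1 of 43 break repair genes, and the horizontal axis is its Pearson r with the cell cycle score over 16 arrays (dots coloured by role, with bars and crosses for the 10 arrays of low and the 6 of high oviduct score). The scale runs from Nbn at -0.31 to Rad51ap1 at 0.97, and 12 genes exceed 0.8.

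Many replication genes are switched on by E2F factors, which bind sites close to the start of a gene. Promoter windows of 300 bases, 250 before and 50 after the start, were found for 38 of the 46 genes in RefSeq's table of the rat build GRCr8. An E2F-type motif, TTTCCCGC, TTTCGCGC, TTTGCCGC or TTTGGCGC on either strand, was present in 9 of 38 windows (23.7%), against 716 of 33469 windows of all genes (2.14%). The 9 were Rad51d, Dna2, Rpa2, Atm, Chek1, Fancc, Fancd2, Fancl and Smc6. Among genes with an r over 0.8 it was in 3 of 10 windows (30.0%), and among the other measured genes in 5 of 25 (20.0%). The hexamer TTTGAA, the core of the CHR element of mitotic genes, which neither holds nor is held by an E2F-type motif, was in 3 of 38 windows (7.89%), against 18.3% of all windows. Those 3 were Rad51c, Eme1 and Fanci, the last without a measured value. Among genes with an r over 0.8 the hexamer was in 2 of 10 windows (20.0%), and among the other measured genes in 0 of 25. The windows were not matched for base composition, and its part in these shares was not tested. Rad51ap1, Exo1 and Eme1, the genes with the highest r, had 0 E2F-type matches. All matches are of letters and not bound sites. The windows of Chek1, Fancd2 and Rpa2, the genes with both a match and an r over 0.8, are shown 5′ to 3′ with the match in capitals.
Chek1: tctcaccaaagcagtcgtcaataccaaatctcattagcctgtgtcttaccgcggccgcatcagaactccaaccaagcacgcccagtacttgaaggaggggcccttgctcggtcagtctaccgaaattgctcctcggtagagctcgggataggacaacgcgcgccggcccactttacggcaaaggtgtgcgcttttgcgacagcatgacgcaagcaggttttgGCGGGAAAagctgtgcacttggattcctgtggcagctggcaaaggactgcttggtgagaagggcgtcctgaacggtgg
Fancd2: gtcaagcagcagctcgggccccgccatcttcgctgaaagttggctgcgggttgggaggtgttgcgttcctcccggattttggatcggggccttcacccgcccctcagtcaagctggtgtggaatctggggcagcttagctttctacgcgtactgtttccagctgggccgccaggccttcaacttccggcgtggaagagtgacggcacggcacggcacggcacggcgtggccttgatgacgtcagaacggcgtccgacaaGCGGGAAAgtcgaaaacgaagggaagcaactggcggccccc
Rpa2: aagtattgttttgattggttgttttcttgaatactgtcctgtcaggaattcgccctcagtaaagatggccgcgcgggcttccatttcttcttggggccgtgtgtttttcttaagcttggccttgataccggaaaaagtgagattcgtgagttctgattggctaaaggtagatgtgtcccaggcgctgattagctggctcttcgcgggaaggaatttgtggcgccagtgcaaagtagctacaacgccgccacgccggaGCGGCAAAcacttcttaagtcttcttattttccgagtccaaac

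They lie at chr8:44629794-44630093 (minus strand), chr4:148234458-148234757 (plus strand) and chr5:150260522-150260821 (plus strand) of GRCr8. The match begins at base 223 of the Chek1 window, before the start of the gene, and at bases 260 and 258 of the Fancd2 and Rpa2 windows, just after it. In each it reads on the opposite strand.

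A single probe was kept for 24 of the 43 genes, and the other 19 had 23 further probes that passed the filter. The median r of a further probe with the one used was 0.50 over the 16 arrays, over 0.7 for 8 and under 0.3 for 9. For 8 genes, Xrcc3, Atm, Blm, Wrn, Top3a, Fancc, Lig4 and Prkdc, at least 1 further probe gave an interaction of the other sign. With the mean of all probes of a gene in place of the brightest, the median interaction was 0.27, with 40 of 43 above 0. That mean takes in the dim Xrcc3 probe, well above background on 9 of the 16 arrays.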

How the data were processed

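RNA of 16 rat ovaries, 1 array per sample, was labelled with Cy3 and read on single-colour Agilent arrays of 62976 spots. The deposited intensity values are processed signals made with Agilent Feature Extraction 10.7 per the submitters' processing notes (10.7.1.1 per the file headers), background-subtracted within each array. The deposited log2 value table equalled the log2 of these signals minus a constant for each array, and was used as an alternative.

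Spots with outlier flags were dropped, spots of a probe averaged, and the array's 75th percentile subtracted on the log2 scale. Of 45598 probes, 26820 were kept because they were well above background on at least 3 of 4 arrays of a group. The kept probe with the highest mean stood for its gene. Limma 3.58.1 in R 4.3.3 fitted 4 group means over 20439 genes, of which 15037 had a symbol, with Benjamini-Hochberg adjustment over all of them, after a test on simulated data. P-values and 95% intervals measure the spread between the samples, and the number of arrays limits the precision. Exact permutation tests of 4 against 4 arrays were two-sided, with a smallest possible p of 0.0286. Correlations used 100000 two-sided permutations.

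The genes and lists were chosen with earlier results of these data known. Full values were given for the 3 repair genes with the smallest unadjusted p in each comparison, the 5 with the widest range, and others chosen after their values were seen to show a role. Alternatives were normexp background correction, quantile normalization, the deposited log2 table, no filter on dim probes, the mean of a gene's probes, slide or replicate number as a block, and leaving out each array or the 6 arrays of high oviduct score.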

Additional observations from a re-analysis of the deposited data

Results flagged for a closer look

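Among 172 sets of 4 arrays, 1 gene in 1 group each, 10 held an array far from the other 3 by the 95% limit of Dixon for 4 values, where chance alone gives about 1 in 20. Of these, 9 were in BRCA1+/- groups.

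With olaparib, BRCA1+/- replicate 4 gave Rpa1 a log2 signal of -0.64, where the other 3 lay at -1.35 to -1.23. The same array gave Rmi1 -0.75, under the other 3 at -0.48 to -0.45. BRCA1+/- olaparib replicate 1 stood above its group for both ATR partners. It measured 1.57 for Atr, where the others were at 1.23 to 1.24, and -1.69 for Atrip, where they were at -1.90 to -1.88.

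With vehicle, Xrcc4 was -2.40 on BRCA1+/- replicate 3, against -1.54 to -1.38 on the others. Nsmce2 was -6.06 on BRCA1+/- vehicle replicate 1, under the others at -5.45 to -5.38. Rmi1 on that array was -0.48, above the others at -0.71 to -0.69. Atrip was -1.91 on BRCA1+/- vehicle replicate 2, where the others were at -1.64 to -1.62. Xrcc2 was -1.12 on BRCA1+/- vehicle replicate 4, where the others were at -1.03 to -1.02. In the wild-type vehicle group, Prkdc was -1.39 on replicate 4, and -1.30 to -1.29 on the others. The last pair of gaps is under 0.1 log2 units, and stood out because the other 3 arrays were close together.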

How the results depend on the processing

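No repair gene passed an adjusted p under 0.05 by limma under any alternative that was run, and every median difference kept its sign. Over the arrays left out in turn, the median of the 43 genes lay between -0.33 and -0.22 for BRCA1+/- against wild-type with vehicle, 0.11 and 0.32 for olaparib in BRCA1+/- rats, and -0.23 and -0.10 for olaparib in wild-type rats. It lay between 0.01 and 0.17 for BRCA1+/- against wild-type under olaparib and 0.27 and 0.43 for the interaction. Normexp background correction gave -0.19, 0.11, -0.14, 0.05 and 0.23 in that order of comparisons, and quantile normalization -0.30, 0.22, -0.19, 0.10 and 0.37. Of the alternative values for single genes, 479 kept their sign and 1 did not, that of Mus81 for BRCA1+/- against wild-type under olaparib, at -0.0645 without the 6 arrays of high oviduct score, and the cause was not tested. Deviations of same-numbered arrays from their group means had a median correlation of 0.206 (-0.44 to 0.71, over 0.1 for 13 of 24 pairs). For arrays of other numbers it was -0.055, and 0.034 where these shared a slide. Of 16 arrays, 12 correlated best with their own number. The p-values and intervals of the main fit take no account of replicate number. With the replicate number as a block the median interaction stayed at 0.31, and 7 repair genes had an unadjusted p under 0.05, against 3 without it. Over all genes the block gave 1424 against 703 for the interaction, and 494 against 240 for olaparib in BRCA1+/- rats. It gave 1641 against 898 for olaparib in wild-type rats, 1831 against 1119 and 403 against 189 for the genotypes with vehicle and olaparib. With slide as a block, 6 repair genes had such a p for the interaction. The count over all genes with that block is not given here, so this rise from 3 is not set against theirs. With normexp, no repair gene had such a p for olaparib in BRCA1+/- rats, against 2, and 143 of all genes did, against 240. The olaparib difference of Nsmce2 was then 0.02, against 0.78. Dim signals limit Nsmce2, and 4 arrays a group limit every size given.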
